A study of Homo sapiens with 18 samples.

Results

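The 10 genes examined here belong to the cytosolic heat shock response and were measured in cells labelled A1847, a high-grade serous ovarian cancer cell line. They were HSPA1A, HSPA1B, HSPA8, HSP90AA1, HSP90AB1, HSPH1, DNAJA1, DNAJB1, BAG3 and HSPB1. The members were chosen by symbol, and each of the 10 matched exactly 1 of the 57736 gene rows of the count table. The rule itself used no measured value, but the members were chosen with earlier results of these data known.

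The 18 libraries fell into 6 groups of 3. Control cells, labelled wild type for CARM1 and XBP1, CARM1 knockout cells (koCARM1) and XBP1 knockdown cells (shXBP1) were each given vehicle or tunicamycin. The study's methods give a tunicamycin dose of 5 µg/ml for 8 h, a lentiviral CRISPR vector for the knockout and a lentiviral short hairpin RNA for the knockdown. Whether the knockout cells were 1 clone or a pool, and whether the control cells carried a vector, is not given in the sources used here. The labels call the samples of a group replicates without saying that they came from separate cultures, so p-values measure only the spread between these samples, which may be technical. CARM1 is an arginine methyltransferase that acts as a transcriptional coactivator, and XBP1 encodes a transcription factor of the unfolded protein response.

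Cytosolic chaperones hold and refold unfolded proteins in the cytosol and nucleus. HSP70 proteins work with DNAJ co-chaperones, which deliver clients, and with nucleotide exchange factors, which release them, while HSP90 proteins act later on signalling proteins and receptors. Their genes are textbook targets of the transcription factor HSF1, which binds heat shock elements made of alternating GAA and TTC units. Tunicamycin blocks N-linked glycosylation and so unfolds proteins inside the endoplasmic reticulum (ER), where separate sensors and a separate chaperone set, led by HSPA5, respond.

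The promoters of the members are shown first, since most of them held a match to the heat shock element. The members were chosen as heat shock genes, so the shares below are description only. The 250 bases before each annotated start were searched on both strands for a pair of units, GAANNTTC or TTCNNGAA, where N is any base. In 8 of the 10 genes, or 80%, at least 1 window held a pair, against 14% of 27305 genes in the same RefSeq promoter table. HSPH1 and BAG3 held none. The triplet GAANNTTCNNGAA, which contains both pairs, was present before HSPA8, HSP90AA1 and HSP90AB1, or 30% of the members, against 0.557% of all genes. The ER stress element, CCAAT followed after 9 bases by CCACG, was in none of the members' windows and in 0.074% of all 35116 windows. The shorter motif ACGTGG was found in 1 window of HSP90AB1 and in 8.37% of all windows. These are matches of letters, with no measurement of binding. In the stretches below, 5′ to 3′ on the gene's strand, capitals mark the heat shock element pairs, and the gaps to the gene start are given after them.
HSPA1A: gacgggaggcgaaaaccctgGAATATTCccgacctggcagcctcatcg
HSPA1B: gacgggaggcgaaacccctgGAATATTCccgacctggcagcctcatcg
HSPA8, near stretch: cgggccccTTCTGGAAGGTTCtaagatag
HSPA8, far stretch: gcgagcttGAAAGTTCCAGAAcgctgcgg
HSP90AA1: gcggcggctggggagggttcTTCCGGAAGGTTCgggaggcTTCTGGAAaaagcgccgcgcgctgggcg
HSP90AB1: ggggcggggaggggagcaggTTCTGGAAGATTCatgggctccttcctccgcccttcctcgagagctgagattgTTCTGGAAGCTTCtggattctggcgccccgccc
DNAJA1: gggctccaGAAGATTCcacgagcg
DNAJB1: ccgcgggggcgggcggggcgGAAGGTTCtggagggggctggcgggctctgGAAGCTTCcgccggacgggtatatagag
HSPB1: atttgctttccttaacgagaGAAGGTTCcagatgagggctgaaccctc
The sequences came from RefSeq promoter windows on GRCh38.p14, and each stretch matched the GRCh37 genome exactly once. On GRCh37 they lay at chr6:31783194-31783241 (plus strand) for HSPA1A, chr6:31795390-31795437 (plus) for HSPA1B, chr11:122932879-122932907 and chr11:122933054-122933082 (minus) for the near and far stretch of HSPA8, and chr14:102553422-102553489 (minus) for HSP90AA1. The others lay at chr6:44215495-44215600 (plus) for HSP90AB1, chr9:33025065-33025088 (plus) for DNAJA1, chr19:14629229-14629306 (minus) for DNAJB1 and chr7:75931788-75931835 (plus) for HSPB1. The first unit began 106 bases before the start of HSPA1A, 105 before HSPA1B, 55 and 230 before HSPA8 for its near and far stretch, 88 before HSP90AA1, 165 before HSP90AB1, 198 before DNAJA1, 77 before DNAJB1 and 182 before HSPB1. The stretches of HSP90AA1, HSP90AB1 and DNAJB1 lay in introns of longer annotated transcripts of the same genes. Both HSPA8 stretches overlapped an exon of another HSPA8 transcript, and that of DNAJA1 an exon of APTX on the opposite strand. Those of HSPA1A and HSPA1B differed at 1 of 48 bases, A15C, with HSPA1A's base first and positions counted from 1 at the 5′ end.

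The libraries held 9367462 to 13917212 reads assigned to genes. Levels below are normalised read counts (CPM, counts scaled to a common library size by TMM). The 2 targeted genes moved with their labels: CARM1 was at 162 ± 2.69 CPM (SD, n = 3) in control and 74.2 ± 3.11 in knockout cells with vehicle, and XBP1 at 150 ± 3.02 in control and 71.6 ± 2.35 in knockdown cells with tunicamycin. Whether the 3′ reads span the edited CARM1 site is not known here. HSPA5 rose with tunicamycin in all 3 genotypes, by 3.08, 3.77 and 2.98 on the log2 scale in control, knockout and knockdown cells. The knockout libraries stood apart. Their correlation with the other libraries over genes was 0.73 to 0.775, against 0.961 to 0.987 between control and knockdown libraries, a description over genes, which are not replicates. Defining markers differed as well. The Müllerian factor PAX8 reached no more than 2 counts in any library outside the knockout and 465 to 840 within it, KRT7 no more than 13 against 3576 to 5166, and WT1 no more than 2 against 3 to 13. The fibroblast collagen COL3A1 had 1582 to 3403 counts in control and knockdown libraries and at most 10 in the knockout, while COL1A1, another collagen of that list, went the other way, with 54 to 259 counts outside the knockout and 2205 to 6247 within it. MUC16 was at 0 throughout. The 7 epithelial markers summed to 310 to 485 CPM in control, 130 to 214 in knockdown and 2250 to 2770 in knockout libraries. The 4 fibroblast markers summed to 193 to 247, 145 to 206 and 183 to 494 CPM, and the 3 blood markers to at most 0.843 CPM. The endothelial markers VWF and CDH5 summed to at most 0.318 CPM. PECAM1, also of the endothelial list, was not found by symbol. These differences accompany every comparison with knockout cells below, and their part in the results was not tested. Whether the knockout libraries came from the same line as the others was not tested either, so a fold between knockout and control cells may compare more than the CARM1 genotype. Loss of CARM1 and any other difference between the knockout cells and the control cells cannot be told apart in this design.

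Tunicamycin lowered most of the cytosolic heat shock genes while HSPA5 rose. Calls were made with edgeR's quasi-likelihood test, at an adjusted p under 0.05 after Benjamini-Hochberg correction over the 17317 genes tested. Leaving aside HSPA1A, which passed the filter on low counts only through the knockout libraries, 8 of the other 9 members fell in control cells, where 19.9% of all genes tested fell. In knockout cells 9 of 9 fell (18.8% of all genes), and in knockdown cells 9 of 9 fell (19%). None rose. The vehicle and tunicamycin libraries of the falling members did not overlap, as for 24.7%, 26.1% and 23.1% of all genes in that direction in control, knockout and knockdown cells. The median log2 fold change of the 9 was −0.85, −0.87 and −0.84 in control, knockout and knockdown cells, beside a median of 0 over all genes tested in each. In bulk RNA, fewer cells of a type and less RNA per cell cannot be told apart.

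**Figure D1:**
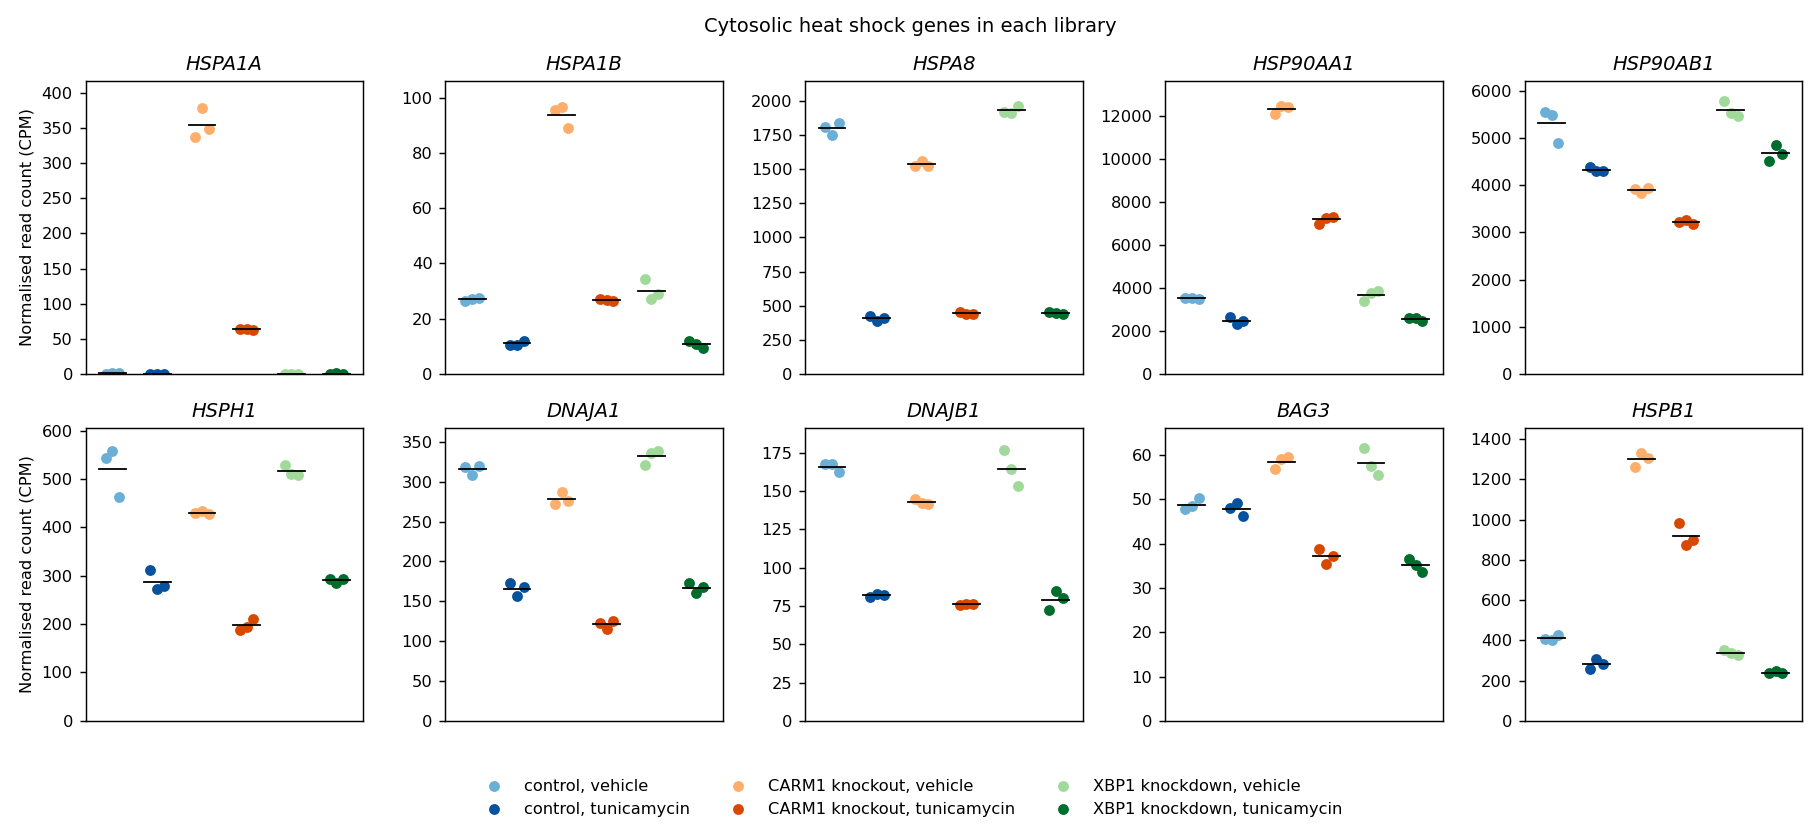
Normalised read count (CPM, linear axes from 0, a scale for each gene) of the 10 cytosolic heat shock genes in the 18 libraries, with a point for each library and a line at the mean of each group of 3. Tunicamycin libraries lie under the vehicle libraries of the same genotype for 8 genes other than HSPA1A and BAG3, and HSPA1A is near 0 outside the knockout cells.

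Among the HSP70 genes, HSPA8 encodes the constitutive cytosolic HSP70, HSC70. In control cells it stood at 1814, 1749 and 1840 CPM with vehicle and 426, 389 and 412 with tunicamycin. It fell 4.37-fold, a log2 fold change of −2.13 ± 0.052 (SE; adjusted p = 1.60e-14, edgeR's quasi-likelihood test). The tunicamycin libraries lay far below the vehicle libraries with no overlap. In knockout cells the levels were 1525, 1561 and 1527 CPM with vehicle and 456, 436 and 442 with tunicamycin, a log2 fold change of −1.75 ± 0.031. In knockdown cells they were 1924, 1911 and 1967 against 457, 447 and 441, or −2.12 ± 0.035. With tunicamycin all 9 libraries lay between 389 and 457 CPM, whatever the genotype. In control and in knockdown cells HSPA8 had the lowest log2 fold change of the 9 members.

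HSPA1B and HSPA1A encode near-identical proteins, the inducible HSP70. HSPA1B stood at 26.5, 27.0 and 27.4 CPM in control cells with vehicle and at 10.6, 10.6 and 12 with tunicamycin, and fell 2.42-fold (log2 fold change −1.27 ± 0.10, adjusted p = 3.55e-08). In knockout cells it stood at 95.9, 96.8 and 89.3 CPM with vehicle and 26.9, 26.8 and 26.5 with tunicamycin, a log2 fold change of −1.78 ± 0.059. In knockdown cells the values were 34.3, 27.0 and 28.9 against 12.1, 10.8 and 9.52 CPM, or −1.48 ± 0.12. The groups with and without tunicamycin did not overlap in any genotype.

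HSPA1A was nearly silent outside the knockout. Its counts were 0, 9 and 14 in the control libraries with vehicle and 2, 0 and 4 with tunicamycin. The knockdown libraries held 0, 1 and 1 counts with vehicle and 1, 6 and 2 with tunicamycin. No fold change is given for these groups, whose counts are at or near the floor of 3. In knockout cells HSPA1A stood at 337, 379 and 349 CPM with vehicle and 64.4, 64.2 and 61.9 with tunicamycin. There it fell 5.45-fold (log2 fold change −2.45 ± 0.047, adjusted p = 1.47e-20), the lowest of the 10 members in that genotype. The 2 genes lie beside each other on chromosome 6 (GRCh37 positions 31783320 to 31785723 for HSPA1A and 31795515 to 31798031 for HSPA1B) and share sequence. Of all 75-base windows, the read length, 73.8% of HSPA1A's and 70.2% of HSPA1B's were also present in the other gene. Over the last 500 bases, where 3′ reads fall, 17.6% of HSPA1A's windows and 0% of HSPA1B's were shared. Reads from shared windows could come from either copy, so the split between the copies is uncertain to that extent. With both genes added as 1 feature, the log2 fold change with tunicamycin was −1.28 ± 0.10 in control, −2.28 ± 0.042 in knockout and −1.45 ± 0.12 in knockdown cells. The sum was mostly HSPA1A in knockout cells with vehicle (355 of 449 CPM) and mostly HSPA1B in control cells (27.0 of 27.5 CPM), so the sums set different genes beside each other across genotypes.

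The HSP90 genes fell less. HSP90AA1, the stress-inducible HSP90α, stood at 3544, 3543 and 3459 CPM in control cells with vehicle and 2625, 2299 and 2452 with tunicamycin, a log2 fold change of −0.50 ± 0.050 (adjusted p = 4.86e-07). In knockout cells it went from 12060, 12450 and 12380 to 6972, 7248 and 7303 CPM, or −0.74 ± 0.025. In knockdown cells it went from 3390, 3765 and 3838 to 2599, 2601 and 2472 CPM, or −0.53 ± 0.041. HSP90AA1 overlaps WDR20 on the opposite strand by 197 bases. HSP90AB1, the constitutive HSP90β, had the smallest fall among the members that were called in each genotype. Its control libraries read 5565, 5485 and 4908 CPM with vehicle and 4384, 4313 and 4306 with tunicamycin, a log2 fold change of −0.28 ± 0.049 (adjusted p = 0.000186). The log2 fold changes were −0.24 ± 0.026 in knockout and −0.27 ± 0.031 in knockdown cells. Vehicle and tunicamycin libraries of both HSP90 genes did not overlap in any genotype.

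HSPH1 is an HSP110 protein that releases nucleotide from HSP70, and DNAJA1 and DNAJB1 are J-domain co-chaperones that bring clients to it. In control cells HSPH1 stood at 544, 558 and 463 CPM with vehicle and 311, 273 and 279 with tunicamycin, DNAJA1 at 308 to 320 and 157 to 173, and DNAJB1 at 163 to 168 and 80.7 to 82.7. The log2 fold changes were −0.85 ± 0.070 for HSPH1, −0.92 ± 0.055 for DNAJA1 and −1.01 ± 0.056 for DNAJB1, with adjusted p of 5.38e-08, 1.08e-09 and 4.26e-10. In knockout cells they were −1.08 ± 0.040, −1.16 ± 0.041 and −0.87 ± 0.043. In knockdown cells they were −0.84 ± 0.040, −0.998 ± 0.047 and −1.07 ± 0.067. All 3 co-chaperone genes thus fell in each genotype, with no overlap between the libraries. The annotated span of DNAJB1 overlaps TECR on the opposite strand by 43307 bases, and whether reads were counted by strand is not given in the sources used here.

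BAG3, a co-chaperone that links HSP70 to autophagy, was the member that did not move in every genotype. In control cells it read 47.7, 48.5 and 50.2 CPM with vehicle and 48.1, 49.1 and 46.2 with tunicamycin. The log2 fold change was −0.02, with a 95% interval from −0.17 to 0.13 (adjusted p = 0.863), and the libraries overlapped. In knockout cells it fell from 56.9, 59.1 and 59.4 to 38.9, 35.5 and 37.1 CPM, a log2 fold change of −0.62 ± 0.063 (adjusted p = 5.11e-08). In knockdown cells it fell from 61.5, 57.5 and 55.4 to 36.6, 35.2 and 33.7 CPM, or −0.73 ± 0.069 (adjusted p = 5.35e-07). In both engineered lines the vehicle libraries lay above the control cells' and the tunicamycin libraries below them.

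HSPB1, the small heat shock protein HSP27, an ATP-independent holder of unfolded proteins, fell in all 3 genotypes. It stood at 406, 402 and 427 CPM in control cells with vehicle and 257, 310 and 283 with tunicamycin, a log2 fold change of −0.53 ± 0.064 (adjusted p = 4.36e-06). In knockout cells the values were 1264, 1331 and 1307 against 984, 875 and 897 CPM, or −0.47 ± 0.037. In knockdown cells they were 351, 336 and 327 against 238, 246 and 236 CPM, or −0.50 ± 0.044.

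**Figure D2:**
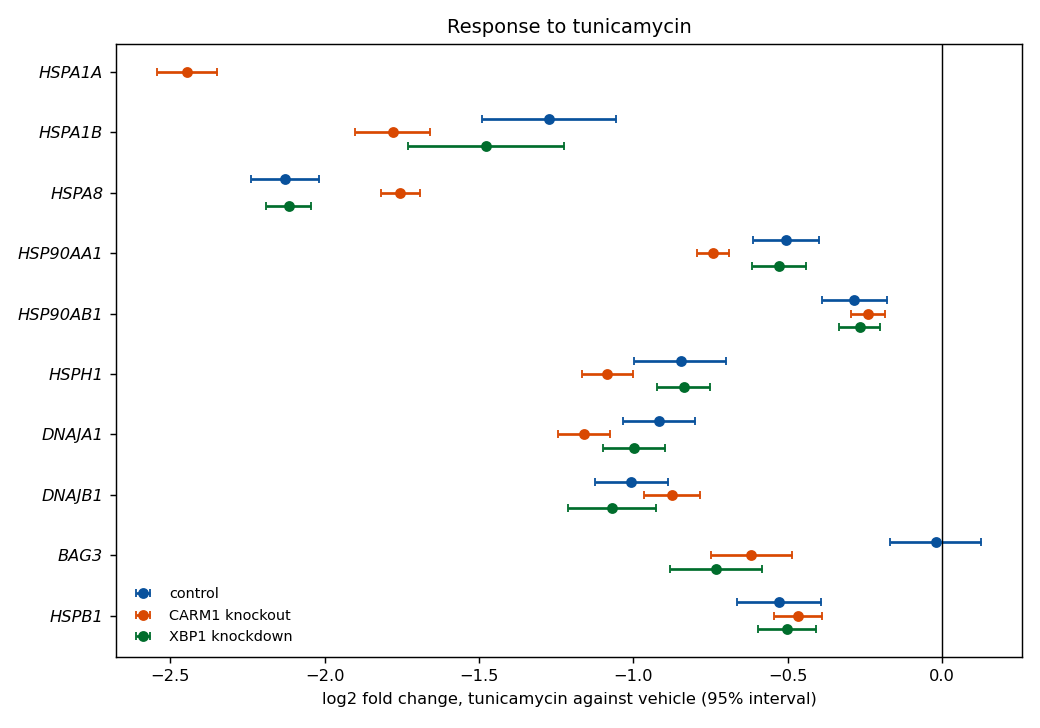
Log2 fold change with tunicamycin against vehicle (x axis, points with 95% intervals) of each member in control, CARM1 knockout and XBP1 knockdown cells; HSPA1A is drawn for the knockout alone, since the other groups hold 0 to 14 counts. All points lie left of 0, and BAG3 in control cells is the one whose interval includes it.

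The next comparison asked how the members differed between the CARM1 knockout and control cells. Of the other 9 members, leaving aside HSPA1A, 4 were higher and 5 lower with vehicle, and 4 were higher and 4 lower with tunicamycin. Of all genes tested, 37.5% were higher and 36.9% lower with vehicle, and 38.4% were higher and 36.8% lower with tunicamycin, so most genes were called and the members' counts lie near this background. HSPA1B, HSP90AA1 and HSPB1 differed most in size among these 9. HSPA1A is described apart, since it passed the filter only through the knockout libraries and a high knockout value came with its entry.

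HSPA1A's lowest knockout library was 359 times its highest control library with vehicle and 204 times with tunicamycin. HSPA1B was 3.38-fold higher with vehicle (log2 fold change 1.76 ± 0.065, adjusted p = 1.10e-12) and 2.43-fold with tunicamycin (1.28 ± 0.096). Added as 1 feature, the 2 genes were higher by 3.98 ± 0.059 and 3.01 ± 0.075 on the log2 scale. In knockout cells most of that sum was HSPA1A, which passed the filter only through the knockout libraries. The summed difference therefore carries no weight beyond that of HSPA1B alone. HSP90AA1 was 3.39-fold higher with vehicle (1.76 ± 0.031, adjusted p = 1.73e-16) and 2.93-fold with tunicamycin (1.55 ± 0.044). HSPB1 was 3.06-fold and 3.26-fold higher (1.61 ± 0.042 and 1.70 ± 0.062). The knockout libraries of HSPA1B, HSP90AA1 and HSPB1 lay above all control libraries of the same treatment. This held for 39.5% of all genes with vehicle and 39% with tunicamycin.

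The other members differed less. HSP90AB1 was lower by 0.49 ± 0.043 with vehicle and 0.42 ± 0.032 with tunicamycin on the log2 scale, so the paralogs HSP90AA1 and HSP90AB1 went opposite ways. HSPH1 (−0.32 ± 0.058 and −0.53 ± 0.057) and DNAJA1 (−0.23 ± 0.044 and −0.44 ± 0.052) were lower under both treatments. DNAJB1 was lower with vehicle (−0.26 ± 0.046), and with tunicamycin its value was −0.10 (95% interval −0.21 to 0.01, adjusted p = 0.0907). HSPA8 was lower with vehicle (−0.27 ± 0.036) and higher with tunicamycin (0.13 ± 0.043, adjusted p = 0.0145). That last call was lost without knockout tunicamycin replicate 1 (0.11, adjusted p = 0.067) or control tunicamycin replicate 2 (0.086, adjusted p = 0.0719). BAG3 was higher with vehicle (0.21 ± 0.062, adjusted p = 0.00606) and lower with tunicamycin (−0.36 ± 0.067, adjusted p = 0.000198).

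Genes around the members were set beside them, since the knockout cells differed so widely. Among 206 tested genes within 5 Mb of HSPA1A and HSPA1B, the median log2 difference with vehicle was 0.54 (quartiles −0.06 and 1.39). Of them, 82% lay below HSPA1B and 99.5% below HSPA1A. The rank of HSPA1A carries no weight of its own, since it passed the filter only through the knockout libraries. HSP90AA1 lay above 86.7% of 75 neighbours with a median of −0.02, and HSPB1 above 90.8% of 65 with a median of −0.37. HSPA8, DNAJA1, DNAJB1, BAG3, HSPH1 and HSP90AB1 lay above 52.4%, 50.6%, 47.6%, 52.2%, 44.1% and 34.2% of theirs. With tunicamycin the shares were 98.1% for HSPA1A, 73.3% for HSPA1B, 80% for HSP90AA1 and 93.8% for HSPB1. HSPA8 was at 69.5%, close to HSPA1B, DNAJB1 at 53.1%, DNAJA1 at 44.6%, HSP90AB1 and BAG3 at 30.4% each and HSPH1 at 17.6%.

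**Figure D3:**
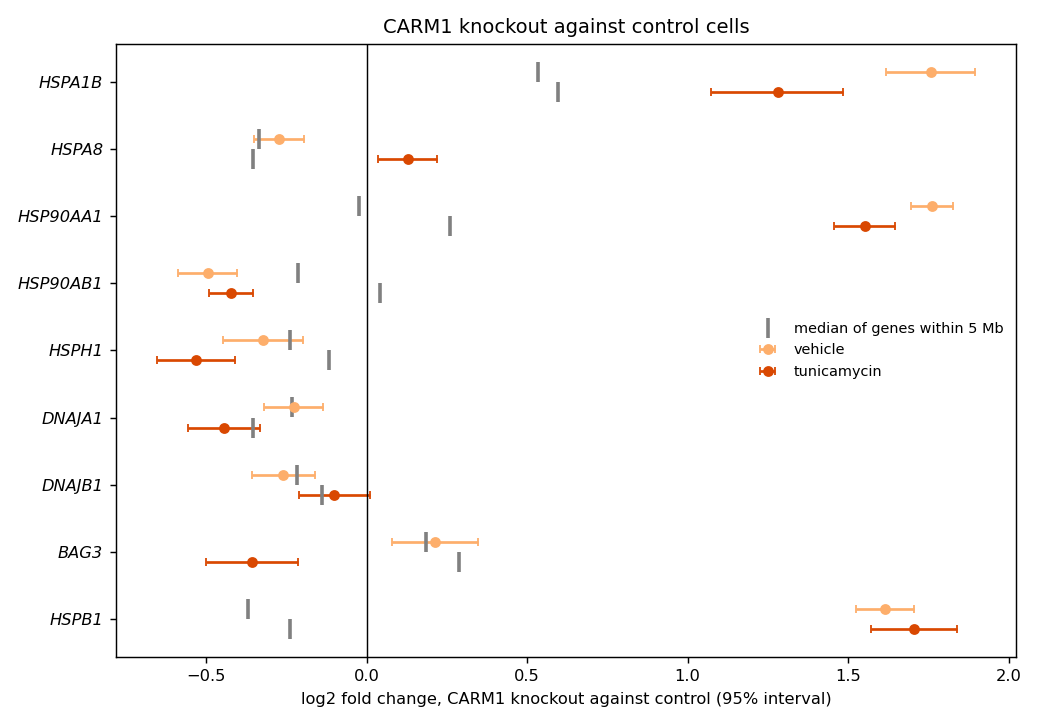
Log2 fold change of CARM1 knockout against control cells (x axis, points with 95% intervals) for 9 members with vehicle and with tunicamycin; grey bars mark the median of the tested genes within 5 Mb. HSPA1B, HSP90AA1 and HSPB1 lie between 1.28 and 1.76, while the other members lie between −0.53 and 0.21.

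The XBP1 knockdown was compared with the same control libraries. With vehicle, 1 of the 9 members was called, against 5.1% of all genes tested (2.07% higher and 3.03% lower). HSPB1 was lower in the knockdown, at 351, 336 and 327 against 406, 402 and 427 CPM (log2 fold change −0.29 ± 0.050, adjusted p = 0.00277), with no overlap. BAG3 was at 0.24 (95% interval 0.10 to 0.39, adjusted p = 0.0517), short of the threshold, and its libraries did not overlap either. The same was true of HSPA8 (0.10, 95% interval 0.01 to 0.18, adjusted p = 0.198) and DNAJA1 (0.07, −0.03 to 0.17, adjusted p = 0.504), both higher in the knockdown. Non-overlap in the lower direction held for 11% of all genes and in the higher direction for 12.6%. BAG3 passed without control vehicle replicate 3 (0.27, adjusted p = 0.0413), and with DESeq2 size factors, without a filter, with a minimum of 10 counts in each library and with 1 fit over all libraries (adjusted p = 0.0467, 0.0267, 0.0462 and 0.00769). The other 7 had log2 fold changes from −0.02 to 0.15. Their 95% intervals lay between −0.15 and 0.35.

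With tunicamycin, 3 of the 9 were called, against 15.5% of all genes tested (6.99% higher and 8.55% lower). BAG3 was lower by 0.44 ± 0.071 on the log2 scale (adjusted p = 0.000519) and HSPB1 by 0.24 ± 0.060 (adjusted p = 0.0126). HSP90AB1 was higher by 0.11 ± 0.033 (adjusted p = 0.0293), at 4525, 4854 and 4661 against 4384, 4313 and 4306 CPM. The libraries of all 3 did not overlap, as was the case for 15.7% of all genes in the higher and 15.8% in the lower direction. The HSP90AB1 call was lost with 1 fit over all 18 libraries (0.11, adjusted p = 0.0542), with a minimum of 10 counts in each library (0.10, adjusted p = 0.0598) and without control tunicamycin replicate 3 or knockdown tunicamycin replicate 2 or 3, where the log2 fold change was 0.084 to 0.12, and the HSPB1 call without control or knockdown tunicamycin replicate 3 (adjusted p = 0.0572 and 0.064). HSPA8 was at 0.14 (95% interval 0.04 to 0.23, adjusted p = 0.0563) and did not pass, although its libraries did not overlap. It passed without control tunicamycin replicate 1 (0.16, adjusted p = 0.0242), with 1 fit over all 18 libraries (adjusted p = 0.0137), without a filter (adjusted p = 0.0444) and with a replicate block (adjusted p = 0.0351).

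**Figure D4:**
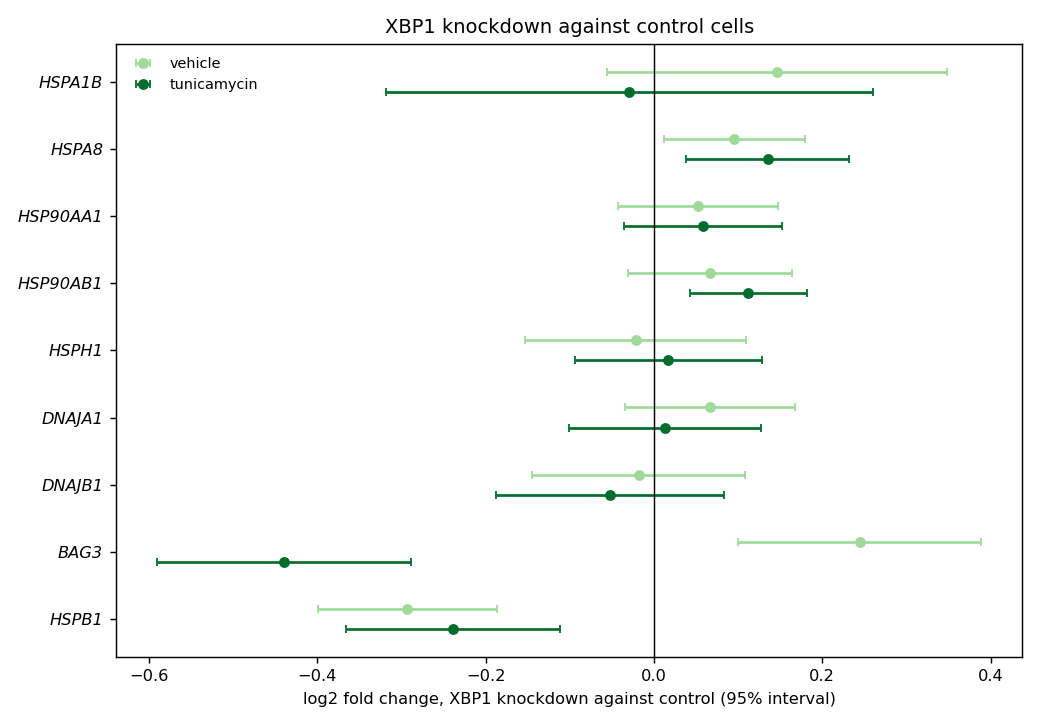
Log2 fold change of XBP1 knockdown against control cells (x axis, points with 95% intervals) for 9 members with vehicle and with tunicamycin. The intervals of BAG3 lie right of 0 with vehicle and left of it with tunicamycin, and both points of HSPB1 lie left of 0.

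Whether the response to tunicamycin itself differed from that of control cells was tested with an interaction term. For the knockout, 6 of the 9 members were called, against 22.9% of all genes tested. BAG3 (−0.62 ± 0.087, adjusted p = 2.34e-05) fell in the knockout and was not called in control cells. HSPA1B (−0.53 ± 0.11, adjusted p = 0.000979), DNAJA1 (−0.26 ± 0.067), HSP90AA1 (−0.26 ± 0.057) and HSPH1 (−0.26 ± 0.089) fell further in the knockout, in log2 units. HSPA8 fell less (0.35 ± 0.057, adjusted p = 0.000101). HSP90AB1 was at 0.03 (95% interval −0.09 to 0.15), DNAJB1 at 0.11 (−0.02 to 0.25) and HSPB1 at 0.04 (−0.12 to 0.21).

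Some of these calls depended on the libraries or settings used. The HSPH1 call was lost with DESeq2 size factors, with no filter, with a minimum of 10 counts in each library and with a replicate block (adjusted p = 0.0635, 0.0629, 0.0953 and 0.0567). It was also lost when any of 11 of the 12 libraries was left out, and its value fell to −0.11 without control vehicle replicate 3. HSP90AA1 was at −0.13 (adjusted p = 0.0722) without control tunicamycin replicate 1, and also lost its call without control tunicamycin replicate 3 (−0.19) or control vehicle replicate 1 (−0.19). DNAJA1 lost its call with no filter (adjusted p = 0.0776) and was at −0.16 (adjusted p = 0.111) without control tunicamycin replicate 1, and also lost its call without control tunicamycin replicate 3 or control vehicle replicate 1 or 2 (−0.18 to −0.20). HSP90AB1 passed without control vehicle replicate 3 (0.15, adjusted p = 0.0237), the library where it read 4908 CPM, and so did DNAJB1 (0.20, adjusted p = 0.0374). BAG3, HSPA1B and HSPA8 were called whichever library was left out.

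For the knockdown, BAG3 alone of the 9 was called (−0.71 ± 0.092, adjusted p = 0.000183), against 2.04% of all genes tested. The other 8 lay between −0.20 and 0.03, with 95% intervals that ran from −0.53 to 0.20 in all. The knockout and knockdown comparisons of BAG3 share the control libraries, in which it did not change, so the 2 interactions are not independent of each other.

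Other chaperone genes were taken from lists of the heat shock network. In the HSP90 system, 7 of 12 genes fell and 1 rose with tunicamycin in control cells, where 19.9% of all genes tested fell and 22% rose, with a median log2 fold change of −0.24 over the list. FKBP4, an HSP90-binding immunophilin, fell from 147 ± 5.78 to 88.6 ± 2.93 CPM (−0.72 ± 0.059), and PPID rose (0.33 ± 0.066). FKBP4 was also the lowest called gene of that list in knockout (−0.60 ± 0.046) and knockdown cells (−0.65 ± 0.056), where 6 and 5 of 12 fell (18.8% and 19% of all genes) and 1 rose in each (20.6% and 19.2%), and CDC37 had the highest called value (0.24 ± 0.031 and 0.13 ± 0.043).

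In the wider HSP70 system, HSPA2 and DNAJA4 passed the filter only through the knockout libraries and were set aside. Of the other 19 genes, 6 fell and 7 rose in control cells, with a median of 0.07, beside the 19.9% and 22% of all genes. HSPA13, an HSP70-like protein of the microsomes rather than the cytosol, rose from 16.3 ± 1.72 to 90.3 ± 0.716 CPM (2.48 ± 0.082), and the lowest called gene, HSPA6, had only 2 to 22 counts per control library. In knockout cells 7 fell and 7 rose, beside 18.8% and 20.6% of all genes. In knockdown cells 6 fell and 6 rose, beside 19% and 19.2%. HSPA13 was at 1.29 ± 0.052 in knockout and 2.12 ± 0.083 in knockdown cells. BAG1 was the lowest called in the knockdown (−0.78 ± 0.080). The TRiC chaperonin, which folds actin and tubulin, moved little. In control cells 2 of 8 subunits rose, CCT7 by 0.28 ± 0.075 and CCT8 by 0.13 ± 0.049, and none fell.

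Among 10 other heat-responsive genes, 4 fell and 3 rose in control cells, where 19.9% of all genes tested fell and 22% rose. IER5L fell from 50.8 ± 2.14 to 13.9 ± 2.02 CPM (−1.85 ± 0.10). HSPE1, the mitochondrial co-chaperonin HSP10, was the lowest called of the list in knockdown cells (−1.64 ± 0.045), and its interaction with the knockdown was called (−0.46 ± 0.073, adjusted p = 0.00108). HSPE1 was at −1.18 ± 0.057 in control cells. HSPD1, the HSP60 partner of HSPE1, was at 0.06 ± 0.057 in control cells (adjusted p = 0.436); HSPD1 was named after its values were seen. Of the heat shock factors, HSF1 rose slightly in control (0.24 ± 0.082, adjusted p = 0.0254) and knockout cells (0.18 ± 0.046), and HSBP1, a binding partner of HSF1, fell in all 3 genotypes (−0.54 ± 0.055, −0.20 ± 0.046 and −0.59 ± 0.046). Of the 7 other small heat shock proteins listed, HSPB11 was not found by symbol. Of the rest, 3 passed the filter, all through the knockout libraries alone, with at most 5 counts of any in a control library.

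**Figure D5:**
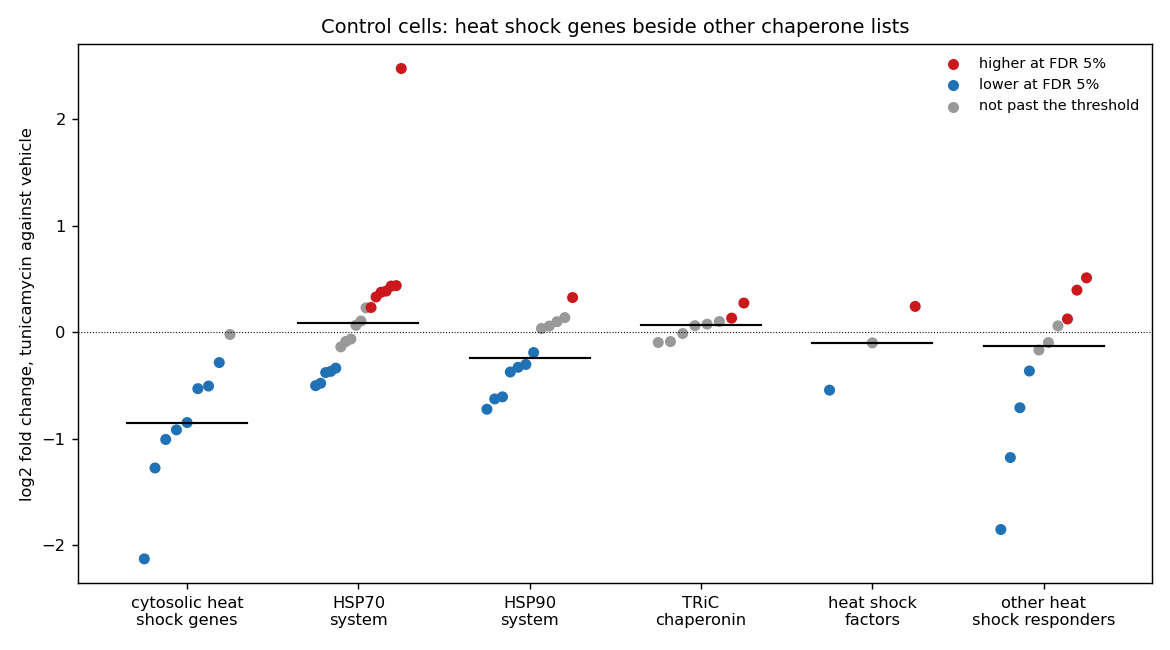
Log2 fold change with tunicamycin against vehicle in control cells (y axis) for 9 of the cytosolic heat shock genes and for 5 other lists, with a point for each gene, coloured by its call, and a line at the median of the points drawn; genes that never reached 50 counts in a control library were left out. The 9 heat shock genes all lie below 0, with a median of −0.85, while each other list has genes on both sides.

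Between knockout and control cells with vehicle, 37.5% of all genes tested were higher and 36.9% lower, which the counts of these lists are read against. Of the TRiC list, 7 of 8 subunits were lower and none higher, led by CCT3 (−0.94 ± 0.041), with a list median of −0.29. In the HSP90 system 6 of 12 were higher and 5 lower, near those shares, from FKBP5 (−2.34 ± 0.066) to CDC37 (0.88 ± 0.040). HSF2 was lower (−1.35 ± 0.068), and the highest called heat shock factor, HSF4, had only 4 to 15 counts in control and 23 to 31 in knockout libraries. HSF1, named after its values were seen, stood at 41.8 ± 1.39 CPM in control and 117 ± 4.88 in knockout cells (1.44 ± 0.060, adjusted p = 5.04e-12). UBB, a polyubiquitin gene, had 7084 to 8051 counts in control and 0 to 4 in knockout libraries with vehicle. The small heat shock gene CRYAB had 1 to 5 counts in control and 786 to 1140 in knockout libraries, and HSPB2 had 0 in control and 177 to 275 in knockout libraries. CRYAB and HSPB2 passed the filter only through the knockout libraries, so a high knockout value came with their entry. Of the 19 genes of the HSP70 list 11 were higher and 7 lower, with a median of 0.35. HSPA2, set aside, had 0 counts in control and 59 to 129 in knockout libraries.

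In the knockdown with vehicle, 1 of 19 genes of the HSP70 list, 1 of 12 of the HSP90 system and 1 of 8 TRiC subunits were higher. Of the 10 other heat-responsive genes 2 were lower, and no heat shock factor was called. Of all genes tested, 2.07% were higher and 3.03% lower. DNAJC2 (0.23 ± 0.057), PTGES3 (0.16 ± 0.043) and CCT8 (0.17 ± 0.046) were higher, and SERPINH1, the collagen chaperone HSP47 (−0.57 ± 0.081), and CLU, clusterin (−0.44 ± 0.074), were lower. With tunicamycin 4 of 12 genes of the HSP90 system were higher and none lower, against 6.99% and 8.55% of all genes, from PTGES3 (0.22 ± 0.048) to PPP5C (0.30 ± 0.084). HSPA13 was lower (−0.37 ± 0.062) and no other gene of the wider HSP70 list was called.

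Across all 18 libraries the members did not share 1 profile. Pearson's r of log2 CPM was 0.986 between HSPA8 and DNAJB1, 0.985 between HSPH1 and DNAJA1 and 0.976 between HSP90AA1 and HSPB1. HSP90AB1 was at −0.591 with HSP90AA1 and −0.776 with HSPA1A. The genes outside the members nearest to their mean profile were HMGN3 (0.977), BMPR2 (0.973), RAB8A (0.969), IFNGR2 (0.968) and BLOC1S1 (0.964). These values describe the 18 libraries, which fall into 6 groups and share genotype and treatment, and carry no test.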

How the data were processed

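The series holds 18 RNA-seq libraries labelled as A1847 cells, 3 in each of 6 groups. The authors made 3′ mRNA libraries with a Lexogen kit, sequenced single reads of 75 nt, aligned them with bowtie2 to hg19 and estimated counts per Ensembl gene with RSEM, given as version 1.2.3 in the submitters' processing notes. The deposited values are expected counts, whole numbers with no normalization, with 9367462 to 13917212 per library. The annotation release, the use of strand and the treatment of reads shared by paralogs are not given in the sources used here. Symbols and GRCh37 positions were joined by Ensembl identifier for 55501 of 57736 genes. Pseudogenes named after a member held at most 0.108% of the counts of that member and its pseudogenes.

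Genes were kept by edgeR's filterByExpr (minimum count 10) over all 18 libraries, which left 17317. TMM scaling and edgeR 4.0.16 quasi-likelihood tests (R 4.3.3) were run on the 2 groups compared, or on 4 groups for an interaction, with Benjamini-Hochberg adjustment over all genes tested and calls at FDR 5%. Errors on log2 fold changes are standard errors, and intervals are 95%. An exact permutation test of 3 against 3 cannot go below p = 0.1 and was not used. The tests were tested on simulated data, where the share of false calls was above the nominal FDR in most comparisons simulated. These were knockout and knockdown against control cells with vehicle, and both interactions. DESeq2 1.42.0, other scaling and filters, 1 fit over all libraries, a replicate block and leaving out each library were tried as alternatives. The labels give no batch.

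The members, the gene lists and the comparisons were chosen with earlier results of these data known. Members are named in full, and of each other list the highest and lowest called gene in a comparison, unless stated. A gene of those lists is not reported here by name. Counting error sets the precision of low counts, and the floor of detection was set at 3 counts. The RPKM values and cut-and-run data of the study were not used here.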

Additional observations from a re-analysis of the deposited data

Results flagged for a closer look

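These results stood out because the response to tunicamycin differed from that of control cells by an interaction test (edgeR's quasi-likelihood test), as a difference of log2 fold changes. In the CARM1 knockout BAG3 was at −0.62, with a fall there and no call in control cells. HSPA1B at −0.53, DNAJA1 at −0.26, HSP90AA1 at −0.26 and HSPH1 at −0.26 fell further than in control cells, and HSPA8 at 0.35 fell less. In the XBP1 knockdown BAG3 was at −0.71. With 3 libraries a group, no single library was tested as an outlier.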

How the results depend on the processing

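All calls of a fall with tunicamycin among the 9 members other than HSPA1A kept their direction and side of the threshold under every alternative run for that comparison, and so did the calls of BAG3, HSPA1B and HSPA8 in the knockout interaction and of BAG3 in the knockdown interaction. Over the members' log2 fold changes, 539 results under other settings and 558 without a library stayed on their side. Of the rest, 7 and 25 lost a call, 8 and 4 gained one, and 1 and 25 turned direction, none of the turned ones being called. Counts below are of all 10 members.

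In the knockdown with vehicle, members higher went from 0 to 1 with DESeq2 size factors, without a filter, with a minimum of 10 counts in each library or with 1 fit over all libraries, and members lower from 1 to 2 with no filter or 1 fit, where the added gene was HSPA1A, at 0 to 14 counts. With tunicamycin, members higher went from 1 to 2 with no filter and 0 with at least 10 counts. With 1 fit it stayed at 1, as HSPA8 passed and HSP90AB1 did not. In the knockout interaction, members higher went from 1 to 2 with at least 10 counts and members lower from 5 to 3 with no filter. HSPH1 lost its call there (adjusted p = 0.0629), with DESeq2 size factors (adjusted p = 0.0635) and with at least 10 counts (adjusted p = 0.0953), where members lower went to 4. A filter without the knockout libraries, chosen after seeing the data and run only for the 5 comparisons that use no knockout library, changed no call of the 9 members other than HSPA1A. The cause of these changes was not tested, except that the stricter filter tests fewer genes.

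Same-numbered libraries showed no clear shared deviation: their deviations from group means correlated at −0.048 to 0.0387 over 21 pairs. Whether the replicate numbers pair samples is not given by the labels. With the replicate number as a block, members higher in the knockdown with tunicamycin went from 1 to 2, as HSPA8 passed (0.14, adjusted p = 0.0351), and HSPH1 lost its knockout interaction (−0.26, adjusted p = 0.0567).

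Leaving out a library, members ranged from 0 to 1 higher and 1 to 2 lower in the knockdown with vehicle, from 0 to 2 higher and 1 to 2 lower with tunicamycin, and from 1 to 3 higher and 2 to 5 lower in the knockout interaction. Uncalled values that crossed 0 were BAG3 with tunicamycin in control cells (−0.045 to 0.0023). In the knockdown with vehicle they were HSPH1 (−0.098 to 0.029) and DNAJB1 (−0.069 to 0.036). With tunicamycin they were HSPA1B (−0.12 to 0.053), HSPH1 (−0.020 to 0.073), DNAJA1 (−0.025 to 0.039) and DNAJB1 (−0.10 to 0.0060). In the knockout interaction it was HSPB1 (−0.0074 to 0.17). In the knockdown interaction they were HSPA8 (−0.0165 to 0.065), HSP90AA1 (−0.068 to 0.051, and 0.018 with no filter), HSP90AB1 (−0.011 to 0.078), HSPH1 (−0.031 to 0.096), DNAJB1 (−0.11 to 0.0073) and HSPB1 (−0.015 to 0.10). Depth limits HSPA1A outside the knockout, at 0 to 14 counts.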
